A study of Mus musculus with 6 samples.

Results

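MHC class II antigen presentation was followed through 8 genes, found by their symbols in a table of 35027 genes that was deposited for sorted mouse thyroid tumor cells. The genes are *H2-Aa*, *H2-Ab1*, *H2-Eb1*, *Cd74*, *H2-DMa*, *H2-DMb1*, *H2-Oa* and *Ciita*, and all 8 had reads in all 6 libraries. Tumors were of 2 genotypes. YAP mice carried a Cre transgene that acts in thyroid follicular cells, the *RIK* allele and the tetO-YAP1 transgene. *RIK* holds rtTA and the red fluorescent protein Kate, driven by the CAGs promoter at the Rosa locus. The study cites conditional rtTA strains for it. The tetO-YAP1 transgene codes for YAPS127A, a mutant of the transcriptional coactivator YAP that stays in the nucleus. By the labels the expression of YAPS127A was thyroid-specific. BrafYAP mice carried the same alleles and *LSL-Braf*, which expresses BrafV600E from its own locus once Cre has acted. All mice were on a mixed background, and all received doxycycline (dox) chow to switch on the transgene. The labels and the study's methods give a start at 4 weeks of age, where its results give an older age. Kate-positive cells, about 20000 for each library, were sorted from digested tumors. There were 3 libraries of each genotype, YAP replicates 1, 2 and 3 and BrafYAP replicates 1, 2 and 6. By the labels each YAP library pooled 3 tumors and each BrafYAP library was 1 tumor, so pooling and genotype cannot be told apart. The study's methods instead give a single tumor for every replicate.

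MHC class II molecules are pairs of an alpha and a beta chain that carry peptides from endosomes to the surface of a cell, where CD4+ T cells read them. The invariant chain, coded by *Cd74*, holds new pairs and fills their groove on the way to the endosome. There H2-DM removes the last piece of it and edits the peptide, and H2-O restrains H2-DM. Dendritic cells and B cells make these molecules all the time, and macrophages can make them too. Many epithelial cells, thyroid follicular cells among them, make them when interferon-gamma induces *Ciita*, the coactivator that the class II promoters need.

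Transcription of class II genes depends on a conserved stretch shortly before the start site, in which an X box bound by RFX and a Y box bound by NF-Y stand at a nearly fixed distance and recruit CIITA. RefSeq promoter windows (GRCm38.p6) were at hand for 5 of the 8 genes, *H2-Aa*, *H2-Eb1*, *H2-DMa*, *H2-DMb1* and *H2-Oa*. In the 250 bases before the start, GNAAC (the core of an X box) followed after 10 to 30 bases by GATTGG (a Y box) was found on the strand of the gene in 4 of the 5. The sequences are shown for members in which the pair did not reach beyond the first base of the gene in GENCODE M21. They run 5′ to 3′ on the strand of the gene, with GNAAC and GATTGG in capitals. In *H2-Oa* the last base of GATTGG is the first base of the annotated gene. *H2-Aa* lies on the minus strand (chr17:34287855-34287916), *H2-Eb1* on the plus strand (chr17:34305764-34305824) and *H2-Oa* on the plus strand (chr17:34092291-34092340).
H2-Aa: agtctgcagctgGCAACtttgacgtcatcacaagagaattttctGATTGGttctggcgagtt
H2-Eb1: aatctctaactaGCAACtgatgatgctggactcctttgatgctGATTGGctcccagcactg
H2-Oa: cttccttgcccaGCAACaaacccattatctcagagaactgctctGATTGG
The 2 motifs were 27 bases apart in *H2-Aa*, *H2-DMb1* and *H2-Oa* and 26 bases apart in *H2-Eb1*. *H2-Ob*, the partner chain of *H2-Oa*, had the pair with 24 bases between its parts. The window of *H2-DMb2*, a neighbor of *H2-DMb1*, held GATTGG or its reverse complement but not the pair. Neither window of *H2-DMa* held the pair, and 1 of them held GATTGG or its reverse complement. Of all 32851 promoter windows, 0.545% held the pair on the strand of the gene, 1.05% held it on either strand, and 14.6% held GATTGG on either strand. The motifs were spelled out after these promoters had been read, so the matches are a description of the sequences.

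**Figure D1:**
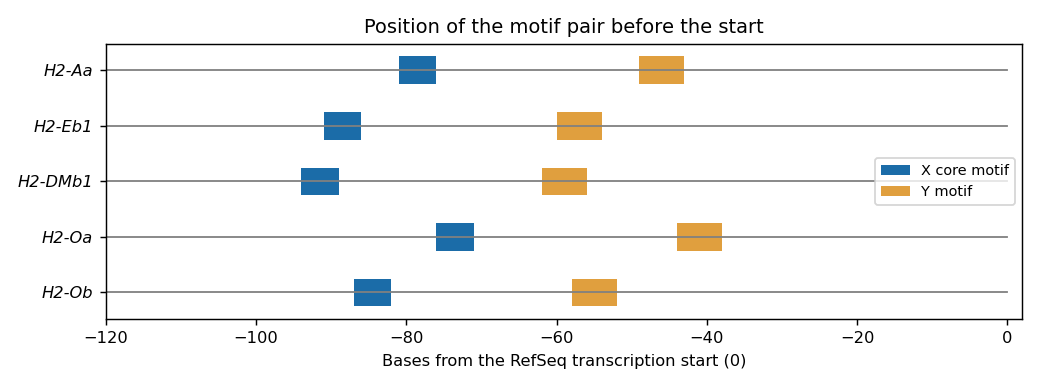
Position of GNAAC (X core motif) and GATTGG (Y motif) before the RefSeq transcription start of 5 class II genes, in bases from the start. The X core motif begins 76 to 94 bases and the Y motif 44 to 62 bases before the start.

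The libraries held 26.2 to 36.9 M reads each, estimated from the steps between low values. The deposited values are TPM, reads per length of gene, scaled within the library. BrafYAP replicate 6 stood apart from the other libraries. Genes of alveolar type 2 cells, a lung epithelial type, summed to 36028 TPM there (with exonic lengths) and to 180 to 761 TPM in the other 5. Its reads of *Sftpa1*, a surfactant protein gene, numbered 561221 against 7 to 513 elsewhere. The thyroid factor gene *Pax8* had 5844 to 14234 reads in every library, and the thyroglobulin gene *Tg* ranged from 66 reads in BrafYAP replicate 2 to 22121 in BrafYAP replicate 6. Results are therefore given with and without that library where it matters.

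To compare levels between genes, values were recomputed with the exonic length of each gene. *Cd74* was then the highest of the 8 genes in each library and *H2-Ab1* the second. *Cd74* averaged 12939 ± 6949 TPM (SD, n = 3) in YAP and 2770 ± 1116 TPM (SD, n = 3) in BrafYAP cells. *H2-Ab1*, *H2-Eb1*, *H2-Aa*, *H2-DMa* and *H2-DMb1* followed in YAP cells, at 4962 ± 5941, 1853 ± 1347, 1191 ± 614, 1096 ± 530 and 789 ± 388 TPM (SD, n = 3). Neighbors in this order differed by less than the SD of the higher one, and in BrafYAP cells *H2-DMa* (379 ± 95.05 TPM) came before *H2-Aa* (285 ± 135 TPM, SD, n = 3). *Ciita* and *H2-Oa* were far below, at 16.5 ± 6.95 and 6.33 ± 2.32 TPM in YAP and 2.59 ± 0.66 and 2.93 ± 4.05 TPM in BrafYAP cells (SD, n = 3). The structural chains and the peptide editors thus lay in one range and the coactivator and the *H2-O* chain in another.

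**Figure D2:**
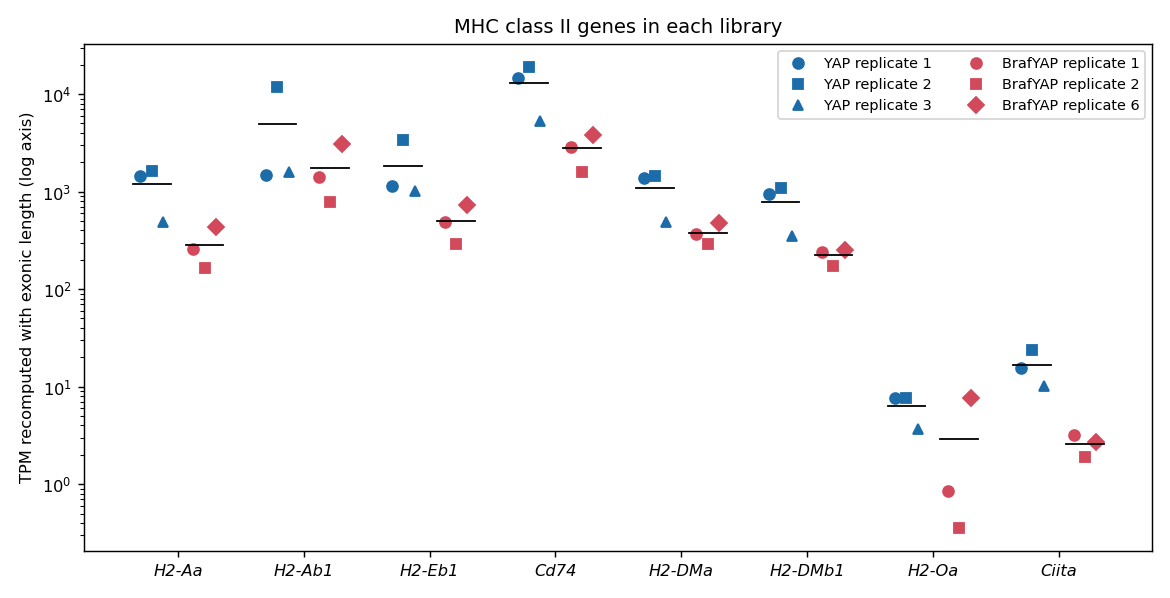
TPM recomputed with exonic length (log axis) of the 8 class II genes in each library. Each point is 1 library, blue for YAP and red for BrafYAP, and the black line is the mean of the 3. BrafYAP libraries sit below all YAP libraries for *H2-Aa*, *H2-Eb1*, *Cd74*, *H2-DMb1* and *Ciita*, and BrafYAP replicate 6 is the highest BrafYAP library for 7 of the 8 genes, all but *Ciita*.

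BrafYAP cells were then compared with YAP cells to ask whether mutant Braf goes with another level of the class II genes. Fitted values were lower in BrafYAP cells for all 8 genes, with a median log2 fold change of -1.90, but 0 of 8 passed the threshold. Deposited values were compared by limma as log2(value + 1), which makes the difference of a low gene look smaller than it is. The p-values were adjusted over the 7319 genes whose mean was 1 or more. *Ciita* and *H2-Oa* had lower means and were fitted on log2(estimated reads + 1) among 16806 genes. Of all genes in these fits, 0.246% and 0.0% were past it. For the 8 genes the adjusted p-values from limma ran from 0.0679 to 0.534. Without adjustment 6 of 8 had a limma p-value under 0.05 and a lower value in BrafYAP, where 9.17% of genes in the first fit and 10.6% in the second did so. The median of all genes was -0.06 in the first fit and -0.12 in the second. The call depended on the weight given to single libraries. With array weights estimated gene by gene, which put YAP replicate 3 highest and BrafYAP replicate 6 lowest, 5 of the 8 passed, namely *H2-Aa*, *H2-Eb1*, *Cd74*, *Ciita* and *H2-Oa* (limma adjusted p from 0.0168 to 0.0474). Under those weights 19.0% of all genes in the first fit and 11.2% in the second passed too.

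All 3 BrafYAP libraries lay below all 3 YAP libraries for 5 of the 8 genes, where 16.4% of all genes in the first fit and 17.1% in the second did. Without BrafYAP replicate 6 this held for 8 of 8 (21.8% and 24.5% of all genes), and the median was -2.23. Among the YAP libraries, replicate 3 had the lowest value for 7 of the 8 genes, all but *H2-Ab1*. The 8 genes varied largely together, with a Pearson's r between 0.633 and 0.996 (median 0.891) in the 28 pairs of genes over the 6 libraries, a description that includes the difference between the genotypes. With 3 libraries against 3, an exact permutation test of a single gene cannot give a p-value below 0.1. Fewer cells that express a gene and less of its RNA in each cell cannot be told apart in these bulk libraries.

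**Figure D3:**
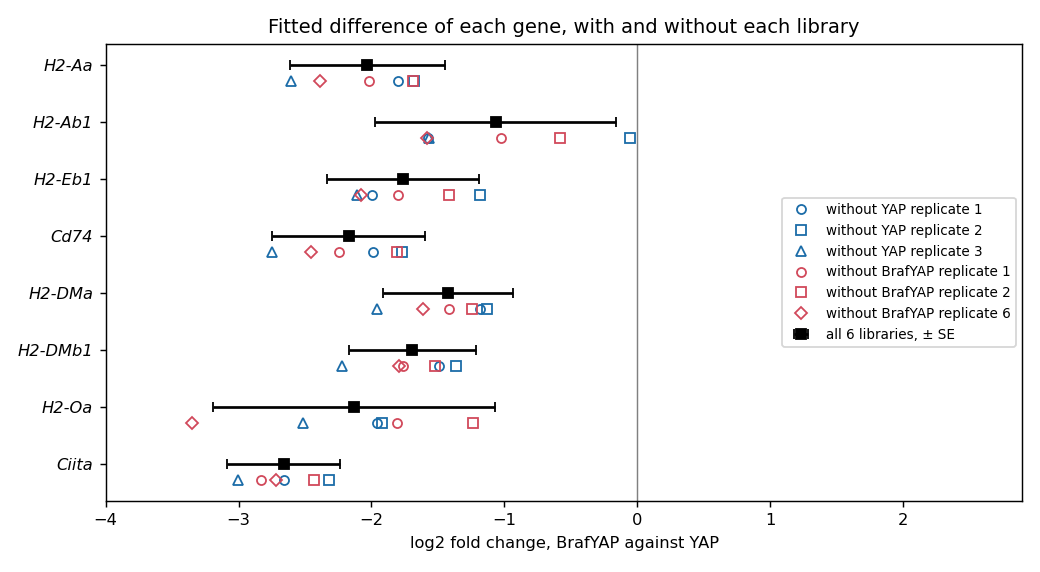
Log2 fold change of each class II gene in BrafYAP against YAP cells, with all 6 libraries (black square, ± SE) and without each library in turn (open symbols). *Ciita* and *H2-Oa* are on the scale of estimated reads and the others on that of deposited values. All points lie below 0, and *H2-Ab1* moves to -0.06 without YAP replicate 2.

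*H2-Aa* codes for the alpha chain of I-A, the class II molecule that every mouse strain makes. It lies on chromosome 17 (34282744 to 34287823, mm10, minus strand). Its deposited values were 414, 491 and 135 TPM in YAP replicates 1, 2 and 3 and 71.6, 45.0 and 121 TPM in BrafYAP replicates 1, 2 and 6. The highest BrafYAP library was just below the lowest YAP library. The means were 347 ± 187 TPM in YAP and 79.1 ± 38.4 TPM in BrafYAP cells (SD, n = 3). The fitted difference, BrafYAP minus YAP, was -2.03 on the log2 scale (SE 0.58, limma adjusted p = 0.129).

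*H2-Ab1*, the gene of the I-A beta chain (chromosome 17, 34257689 to 34269419), behaved differently in single libraries. It had 125.5 and 126.5 TPM in YAP replicates 1 and 3 but 1032 TPM in YAP replicate 2. BrafYAP replicates 1, 2 and 6 had 114, 61.8 and 250.4 TPM, so the groups overlapped. The log2 fold change was -1.06 (SE 0.91, limma adjusted p = 0.534), and it was -0.06 without YAP replicate 2 and -0.58 without BrafYAP replicate 2.

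*H2-Eb1* codes for the beta chain of the second class II molecule, I-E (chromosome 17, 34305867 to 34316674). It had 78.6, 244 and 67.1 TPM in YAP replicates 1, 2 and 3 and 33.0, 19.0 and 49.1 TPM in BrafYAP replicates 1, 2 and 6. The groups did not overlap, and YAP replicate 2 was again the highest. The log2 fold change was -1.76 (SE 0.57, limma adjusted p = 0.157), and it was -1.18 without YAP replicate 2. An antisense gene overlaps *H2-Eb1*, and no strand was stated for the counting. The alpha chain of I-E was represented only by *H2-Ea-ps*, which had 0 reads in all 6 libraries. Strains that lack a working alpha gene make no I-E at the surface.

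The 2 chains of I-A did not keep a fixed ratio. Per exonic length, *H2-Ab1* stood to *H2-Aa* at 1.04 in YAP replicate 1, 7.18 in YAP replicate 2 and 3.21 in YAP replicate 3. The ratio was 5.46, 4.69 and 7.09 in BrafYAP replicates 1, 2 and 6. *H2-Eb1* over *H2-Aa* was 0.789 in YAP replicate 1 and 1.69 to 2.07 in the other 5 libraries. YAP replicate 1 thus had little of both beta chains for its alpha chain. In that library genes with at least 55.2% GC in their longest transcript had a median deviation of -0.66 on the log2 scale from their mean over the 6 libraries, against 0.01 to 0.30 in the others. The GC content was 57.3% for *H2-Ab1*, 51.8% for *H2-Eb1*, 46.5% for *H2-Aa* and 56.6% for *Cd74*, and its part in these ratios was not tested.

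*Cd74*, the gene of the invariant chain (chromosome 18, 60803848 to 60812652), had 1069.8, 1442 and 372 TPM in YAP replicates 1, 2 and 3. The BrafYAP libraries had 204, 111 and 273 TPM in replicates 1, 2 and 6, all below the lowest YAP library. The ratio of the group means was 4.90, and the log2 fold change was -2.17 (SE 0.58, limma adjusted p = 0.113). *Cd74* followed *H2-Aa* closely. Per exonic length there was 8.89 to 11.5 times as much of it as of *H2-Aa* in the 6 libraries, with means of 10.8 ± 0.693 in YAP and 9.92 ± 1.15 in BrafYAP cells (SD, n = 3).

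The genes of H2-DM, the peptide editor, were next. *H2-DMa* (chromosome 17, 34119541 to 34139101) had 93.3, 101 and 31.3 TPM in YAP replicates 1, 2 and 3 and 24.0, 18.6 and 31.7 TPM in BrafYAP replicates 1, 2 and 6. The groups overlapped only in that YAP replicate 3 was slightly below BrafYAP replicate 6. Its log2 fold change was -1.42 (SE 0.49, limma adjusted p = 0.173). The span of *H2-DMa* overlaps *Brd2* and 3 other genes, which can share reads with it.

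*H2-DMb1*, the beta chain of H2-DM (chromosome 17, 34153072 to 34160230), had 85.0, 101 and 29.96 TPM in YAP replicates 1, 2 and 3. It had 21.002, 14.9 and 22.1 TPM in BrafYAP replicates 1, 2 and 6, without overlap. The log2 fold change was -1.69 (SE 0.48, limma adjusted p = 0.128). A second beta gene, *H2-DMb2*, lies beside it, and 22.7% of the 50-base words of the *H2-DMb1* transcripts also occur in *H2-DMb2*, so the division of reads between them is uncertain. *H2-DMb2* had 11.2, 7.87 and 3.80 TPM in YAP and 5.29, 4.15 and 6.57 TPM in BrafYAP replicates 1, 2 and 6 a difference of -0.36 on the log2 scale (SE 0.38, limma adjusted p = 0.614). As a share of *H2-DMb1* per exonic length, *H2-DMb2* was at 0.147, 0.0861 and 0.141 in the YAP libraries and at 0.279, 0.309 and 0.330 in the BrafYAP libraries. Of 22 ratios calculated it was 1 of 3 that were higher in each BrafYAP library than in any YAP library, the others being *H2-DMa* over *H2-DMb1* and *H2-DMa* over *H2-Aa*. None of the 22 was tested beyond this.

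H2-O, which restrains H2-DM and is best known from B cells and some dendritic cells, was represented by *H2-Oa* (chromosome 17, 34092340 to 34095234). It was the lowest of the 8 genes in YAP cells, with 121, 107 and 55.0 estimated reads in YAP replicates 1, 2 and 3. BrafYAP replicates 1 and 2 had 12.0 and 7.0 reads, whereas BrafYAP replicate 6 had 136 reads. Scaled for depth, that library (120 scaled reads) lay between YAP replicates 1 and 2 (123 and 130) and YAP replicate 3 (56.1). Its log2 fold change was -2.13 (SE 1.06, limma adjusted p = 0.305), and it was -3.35 without BrafYAP replicate 6 (limma adjusted p = 0.0813) and -1.24 without BrafYAP replicate 2. The partner gene *H2-Ob* split the libraries in the same way, with 175, 204 and 57.6 reads in YAP replicates 1, 2 and 3 and 11.1, 17.7 and 160 reads in BrafYAP replicates 1, 2 and 6. An antisense gene overlaps *H2-Oa*.

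*Ciita* (chromosome 16, 10480059 to 10528418), the coactivator of the family, had the most negative fitted difference of the 8. It had 1671, 2240 and 1033 estimated reads in YAP replicates 1, 2 and 3. BrafYAP replicates 1, 2 and 6 had 307, 250 and 330 reads, a narrow range with no overlap. The ratio of the group means of the deposited values was 6.65. On the estimated reads the log2 fold change was -2.66 (SE 0.42, limma adjusted p = 0.0679, unadjusted p = 3.5e-04), and it ran from -3.004 to -2.32 when each library was left out. *H2-Oa* and *H2-Ob* stood out among the BrafYAP libraries in replicate 6, and *Ciita*, scaled for depth, was between the other BrafYAP libraries there (290.0 against 337 and 194 scaled reads). *Dexi* overlaps *Ciita* on the other strand.

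The other genes of the pathway were taken from 7 lists. Of 53 tested genes, 0 passed the threshold, and 19 had an unadjusted limma p-value under 0.05 with a lower and 3 with a higher value in BrafYAP cells. Of all genes 9.17% and 10.6% were lower and 10.7% and 9.69% higher at that p in the first and second fit. The groups did not overlap for 21 genes that were lower and 2 that were higher in BrafYAP, where 16.4% and 17.1% of all genes lay wholly below and 11.8% and 11.7% wholly above in the first and second fit. The median log2 fold change was -0.67. The lists differed widely among themselves.

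Genes that interferon-gamma induces, which code for GTPases of cell defense, immunoproteasome subunits and the chemokine *Cxcl9* among others, were lowest in BrafYAP cells. All 13 tested genes had negative log2 fold changes, with a median of -2.06. For 11 of the 13 the BrafYAP libraries lay below the YAP libraries, where 16.4% and 17.1% of all genes did in the first and second fit. The unadjusted limma p was under 0.05 for 11 of 13, where 9.17% and 10.6% of all genes were lower at that p. The threshold was passed by 0 of 13 (lowest limma adjusted p = 0.0511). *Gbp2* shared that lowest p-value (log2 fold change -2.91, SE 0.45). *Igtp*, a GTPase that guards against parasites in vacuoles, had 52.4, 39.2 and 16.2 TPM in YAP and 1.83, 0.992 and 3.19 TPM in BrafYAP replicates 1, 2 and 6 (log2 fold change -3.54, SE 0.48, limma adjusted p = 0.0511). *Irgm1*, of the same family, had 56.5, 45.1 and 17.4 against 5.78, 4.07 and 10.9 TPM. The immunoproteasome genes *Psmb8* and *Psmb10* had log2 fold changes of -1.52 and -1.54.

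Upstream of these genes the picture was mixed. *Ifng*, the ligand, had 3, 2 and 0 reads in YAP and 0 reads in each BrafYAP library. *Irf1*, which binds the *Ciita* promoter, had 20.1, 37.2 and 22.6 against 11.1, 10.7 and 13.0 TPM (log2 fold change -1.09, SE 0.30, limma adjusted p = 0.121). The receptor genes had log2 fold changes of -0.67 (*Ifngr1*) and 0.95 (*Ifngr2*). *Socs3*, an inhibitor of JAK signaling, was higher in all BrafYAP libraries, with 58.3, 94.2 and 92.0 TPM against 6.98, 45.6 and 9.42 TPM (log2 fold change 2.36, SE 0.66, limma adjusted p = 0.126). The median over the 8 tested genes of the interferon-gamma receptor pathway was -0.05.

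The factors that act on class II and *Ciita* promoters had a median log2 fold change of -0.30 over 14 tested genes. At an unadjusted limma p under 0.05, 3 were lower (*Irf1* and *Irf2* among them) and 1 higher (*Rfxap*, an RFX subunit, 1.45). Of all genes 9.17% and 10.6% were lower and 10.7% and 9.69% higher at that p in the first and second fit. *Rfxank*, a subunit of RFX, and *Usf1* had log2 fold changes of -0.36 and -0.13, and *Irf8*, a factor of myeloid cells, had 0.24 (SE 0.69). Of 8 endosomal proteases and related enzymes, 3 were lower at an unadjusted p under 0.05, namely *Ctss*, *Lgmn* and *Ifi30*, with a list median of -0.33. The most abundant, *Ctsd*, had 652, 463 and 371 TPM in YAP and 586, 703 and 782 TPM in BrafYAP replicates 1, 2 and 6 (log2 fold change 0.51, SE 0.30). *Ctsb*, *Ctsl* and *Ctsz* had log2 fold changes of -0.10, -0.45 and -0.21. *Ctss*, which trims the invariant chain in antigen-presenting cells, had 47.5, 47.3 and 15.4 against 12.8, 8.45 and 3.64 TPM and was singled out after its values were seen (log2 fold change -2.00, SE 0.56, limma adjusted p = 0.128). The list of class II turnover and adhesion, which holds partners of the invariant chain and ubiquitin ligases of class II, had a median of -0.61 over 5 genes and 0 genes at an unadjusted p under 0.05. Its most abundant members *Mif* and *Cd44* had log2 fold changes of -0.61 and -0.12, and *Cxcr4* and *March8* had -0.79 and 0.13.

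MHC class I presents peptides from the cytosol in nearly all cells, and its genes did not share one order of libraries. *H2-K1* ranked the 6 libraries as the class II gene *H2-Ab1* did. *H2-K1* had 179, 801.4 and 333 TPM in YAP and 165, 110 and 647 TPM in BrafYAP replicates 1, 2 and 6, and *H2-D1* had 134, 1336 and 329 against 292, 207 and 1106 TPM. Both were highest in YAP replicate 2 and BrafYAP replicate 6, with log2 fold changes of -0.67 (SE 0.78) and 0.06 (SE 0.94). *B2m*, their common light chain, was instead highest in YAP replicate 1, with 625, 394 and 260 TPM in YAP and 73.4, 69.2 and 206 TPM in BrafYAP (log2 fold change -1.97, SE 0.52, limma adjusted p = 0.113). *Tapbp* and *Tap2*, of the peptide loading complex, had log2 fold changes of -0.47 and -1.35.

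**Figure D4:**
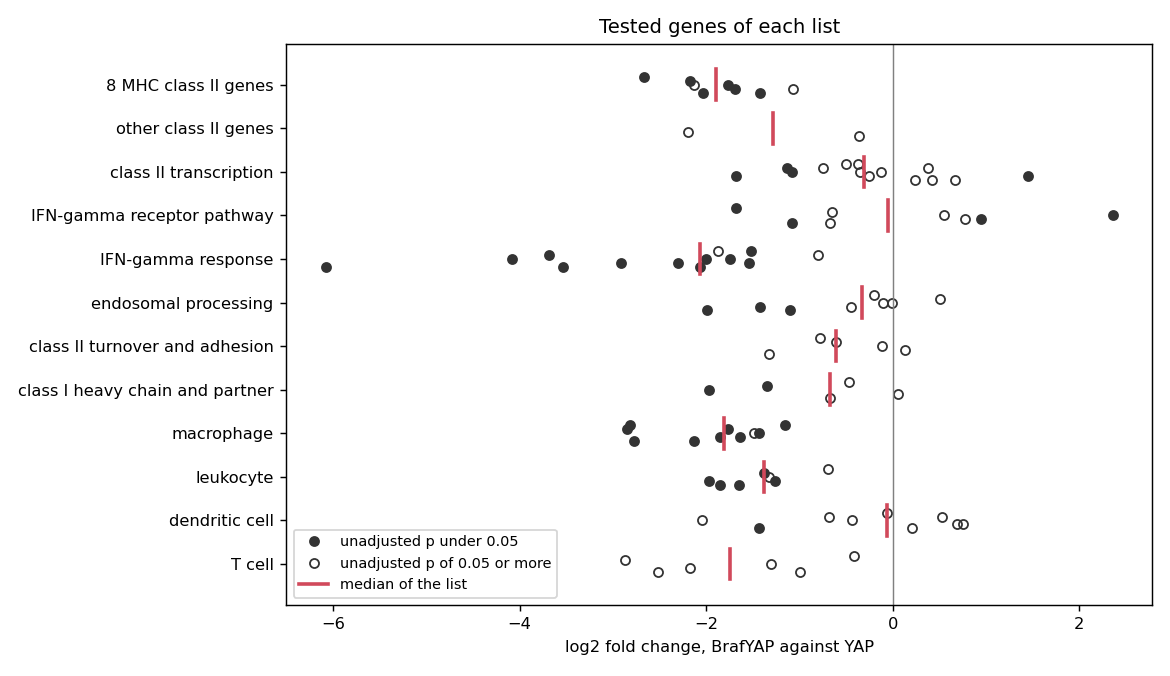
Log2 fold change (BrafYAP against YAP) of each tested gene in the 8 class II genes, 7 pathway lists and 4 marker lists. Filled points had an unadjusted limma p under 0.05, and the red line is the median of the list. The class II genes (median -1.90), the interferon-gamma response (-2.06) and the macrophage markers (-1.81) lie to the left of 0, and 0 genes in the plot passed the adjusted threshold.

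The sorted cells held RNA of leukocytes, and its level differed between the genotypes too. All 10 macrophage markers had negative log2 fold changes (median -1.81). For 7 of them the groups did not overlap, where 16.4% and 17.1% of all genes lay wholly below in the first and second fit. Of the 10, 9 had an unadjusted limma p under 0.05, where 9.17% and 10.6% of all genes were lower at that p. *Lyz2* had 3960, 2863 and 1064 TPM in YAP and 1179, 875 and 297 TPM in BrafYAP replicates 1, 2 and 6, and the complement gene *C1qa* had 363, 438 and 102 against 61.8, 32.4 and 19.9 TPM. *Cd14* had a log2 fold change of -1.16, the one nearest to 0. Summed per exonic length, the 10 markers ranged from 15259 to 49201 TPM in YAP and from 4282 to 14983 TPM in BrafYAP libraries. The 7 leukocyte markers, *Tyrobp*, *Fcer1g* and *Coro1a* among them, summed to 2378 to 4563 TPM in YAP and 673 to 1939 TPM in BrafYAP libraries. Of the 6 B-cell markers 5 stayed under 100 reads in all libraries, *Pax5* had 0 reads and *Ms4a1* at most 6 (these names were chosen after their values were seen). The B-cell list summed to 18.0 to 55.3 TPM in YAP and 2.26 to 9.70 TPM in BrafYAP libraries, most of it *Ighm* in the YAP libraries. In BrafYAP replicates 1 and 6, *Cd79b* made up 2.21 of 4.31 TPM and 4.73 of 9.70 TPM. The 7 T-cell markers summed to 9.87 to 16.2 TPM in YAP and 2.24 to 24.6 TPM in BrafYAP libraries, and none of the 7 was at 0 reads throughout. The 9 dendritic cell markers summed to 94.4 to 206 TPM in YAP and 62.4 to 153 TPM in BrafYAP libraries. *Itgax*, which macrophages also express, led this list in each library except BrafYAP replicate 6. There *Cd209a* (64.5 TPM per exonic length) and *Ccr7* (57.4 TPM) were above *Itgax*.

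The class II genes were therefore set against the macrophage markers library by library. The sum of the 8 genes was 0.425, 0.968 and 0.608 times that of the 10 markers in YAP replicates 1, 2 and 3. It was 0.376 and 0.307 times in BrafYAP replicates 1 and 2 and 2.05 times in BrafYAP replicate 6, so the ratio did not separate the genotypes. With only *C1qa*, *C1qb* and *C1qc* as the base, *Cd74* stood at 1.93 to 2.33 in 5 libraries and at 8.11 in BrafYAP replicate 6. The base mattered, since over all 10 markers *Cd74* stood at 0.295, 0.478 and 0.350 in YAP replicates 1, 2 and 3, at 0.192 and 0.149 in BrafYAP replicates 1 and 2 and at 0.895 in BrafYAP replicate 6. *Ciita* over the 10 markers was 3.1e-04 to 6.6e-04 in YAP, 2.1e-04 and 1.7e-04 in BrafYAP replicates 1 and 2 and 6.4e-04 in BrafYAP replicate 6. YAP replicate 3 and BrafYAP replicate 1 had nearly equal macrophage sums, 15259 and 14983 TPM. Most of that was *Lyz2*, at 11029 and 12011 TPM, so the pair matched mainly on that marker. Their class II sums were 9275 and 5638 TPM and their interferon-gamma response sums 863 and 200 TPM. Over the markers without *Lyz2* the class II sums stood at 2.19 and 1.90 in this pair. That ratio was 2.03 and 3.09 in YAP replicates 1 and 2 and 2.02 and 6.89 in BrafYAP replicates 2 and 6. The part of macrophage RNA in the class II values was not tested.

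**Figure D5:**
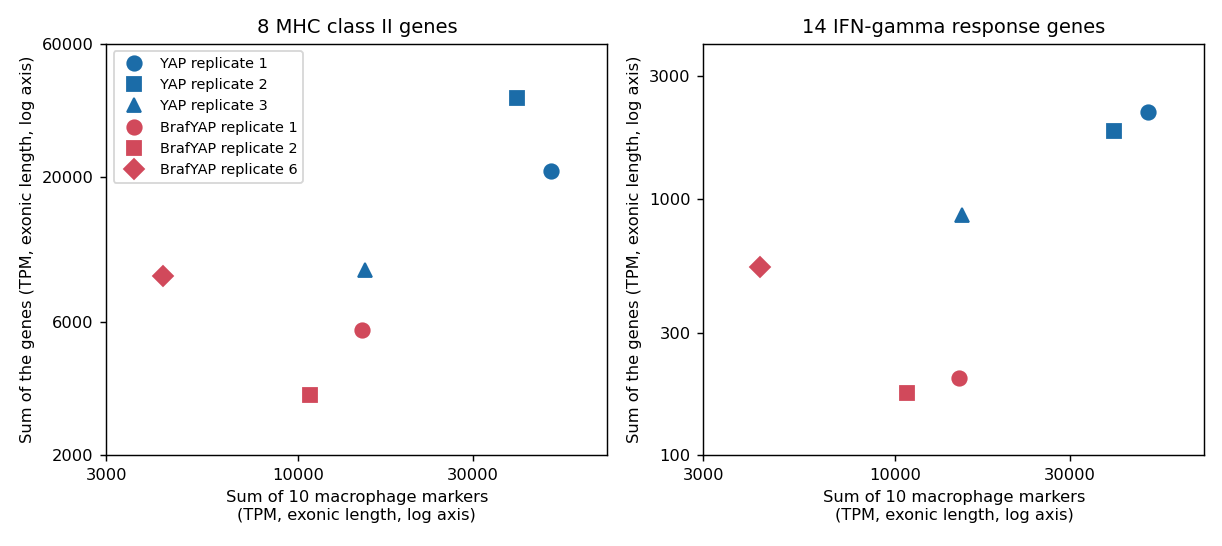
Sum of the 8 class II genes (left) and of 14 interferon-gamma response genes (right) against the sum of 10 macrophage markers, in TPM with exonic length, log axes. Each point is 1 library. YAP libraries have the higher sums on both axes, and BrafYAP replicate 6 has the lowest macrophage sum, 4282 TPM, with a class II sum of 8787 TPM.

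The dendritic cell markers of BrafYAP replicate 6 pointed in several directions. Of the 9 markers 5 (*Ccr7*, *Cd209a*, *Flt3*, *Xcr1* and *Siglech*) were highest in that library, and *Itgax* was lowest there, at 1.71 TPM against 4.43 to 16.7 TPM elsewhere. *Ccr7*, a receptor of migrating dendritic cells, had 3.91 TPM there and 0.211 to 0.862 TPM elsewhere, and *Cd209a* had 6.84 TPM against 0.0550 to 0.453 TPM. *Flt3*, the receptor gene of dendritic cell precursors, had 120.0 reads against 3 to 8. *Clec9a*, *Zbtb46* and *Batf3* lay within the range of the other libraries, with 8, 289 and 71 reads. *Flt3*, *Xcr1*, *Siglech*, *Clec9a*, *Zbtb46* and *Batf3* were named after their values were seen. This library also held 36028 TPM of alveolar type 2 genes, against 180 to 761 TPM elsewhere. The parts of dendritic cell RNA and of alveolar type 2 RNA in its class II values were not tested.

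Outside all lists, the genes whose pattern over the 6 libraries was most like that of the class II genes were *Cfb*, *AW112010*, *Slamf8*, *Prelp* and *Ccr2*. Pearson's r with the mean centered profile of the 8 genes was 0.978, 0.956, 0.955, 0.954 and 0.9503, the highest of 708 candidate genes, and is given as a description over 6 libraries that share 2 genotypes. *Cfb*, a complement factor gene, had 18.4, 23.1 and 3.86 TPM in YAP and 1.81, 1.14 and 3.74 TPM in BrafYAP replicates 1, 2 and 6. *Ccr2*, a chemokine receptor gene of monocytes, had 12.7, 15.0 and 5.61 against 1.98, 2.17 and 3.21 TPM. Of the 5 genes 0 passed the threshold, with limma adjusted p-values from 0.0826 to 0.205.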

How the data were processed

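RNA-seq of Kate-positive cells was deposited as one table of TPM with 0.0001 added, made by the authors with STAR 2.6.1d on mm10 and the Partek E/M model on Ensembl annotation. It has 35027 genes and 6 columns (0 of them without a sample). Multiplying values by gene lengths of GENCODE M21 gave whole reads (within 0.05) for 71.7 to 76.1% of low values when the genomic span was used, against 22.6 to 25.3% when exonic lengths were used. The deposited TPM therefore rest on spans that include introns. Estimated reads were calculated from the span, and TPM by exonic length from these reads. Molecular identifiers were not used, so reads that amplification copied from one molecule cannot be told apart. The read numbers are not numbers of molecules.

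Genotypes were compared, two-sided, by limma 3.58.1 (R 4.3.3; lmFit, eBayes with trend) on log2(TPM + 1) where a gene's mean reached 1, or log2(scaled reads + 1) for lower genes whose mean reached 10 reads, Benjamini-Hochberg adjusted, threshold 0.05. Scaled reads are estimated reads with the authors' scaling between libraries. Nothing states that libraries of a genotype came from separate litters or days, and the p-values measure the spread between these libraries. Sequences are RefSeq's.

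The 8 members and all lists were chosen with earlier results of these data known. Of the pathway lists, genes past the threshold were named (there were 0), otherwise up to 4 genes per list with the highest mean, and *Ifng*, *H2-DMb2* and *H2-Ob*. *Irf2*, *Rfxap*, *Ctss*, *Lgmn*, *Ifi30*, *Gbp2*, *Cxcl9* and *Tap2* fall outside this rule and were named after their values were seen, most for a low p-value. Some items are not reported here. Of marker lists up to 3 were named, and the 5 genes outside the lists with the highest r among tested genes with an SD of at least 1. Of the lists, thyroid, epithelial, thymic, endothelial and fibroblast markers had 0 genes past the threshold, as had all others. Of the 7, 6, 3, 5 and 5 tested genes of these 5 marker lists, 0, 1, 1, 0 and 2 had an unadjusted limma p under 0.05. Of all genes 9.17% and 10.6% were lower and 10.7% and 9.69% higher at that p in the first and second fit. The alternatives were other pseudocounts, filters, scalings, lengths, weights and fits, a replicate block, and each library left out.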

Additional observations from a re-analysis of the deposited data

How the results depend on the processing

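The number of class II genes past the threshold, 0 of 8 by limma (6 at an unadjusted p under 0.05), was 1 with quantile normalization (*Ciita*), 5 with array weights, and 5 with gene-by-gene array weights, an alternative added after the data were seen because the first estimate of the weights did not converge. Of all genes, in the fits of deposited values and of reads, 1.08% and 0.369%, 42.3% and 27.7%, and 19.0% and 11.2% then passed, in that order. Those weights favored YAP replicate 3 (21.9, or 3.03 gene by gene) over BrafYAP replicate 6 (0.218 and 0.299). It was 0 in the other alternatives and ranged from 0 to 0 when each library was left out. The median log2 fold change ran from -2.37 to -1.47 without one library and was -1.26 with array weights. Pathway genes past the threshold numbered 2 with quantile normalization, 32 with array weights, 21 with gene-by-gene array weights and 2 with the exonic length (*Gbp2* and *Igtp*, with 0.42% of all genes), and 0 to 4 without one library (4 without YAP replicate 2, with 6.49% and 0.0179% of all genes, and 1 without BrafYAP replicate 6, with 0.273% and 0.268%). Genes with every BrafYAP library below every YAP library numbered 5 to 8 of 8 without one library. Such a separation is easier to reach with fewer libraries. Without BrafYAP replicate 6, which gave the 8, it held for 21.8% and 24.5% of all genes, against 16.4% and 17.1% with all libraries. No gene's difference changed sign. Filtering at a mean of 10 (100 reads) gave *H2-Oa* no value, and unfiltered TPM gave *Ciita* -0.90 and *H2-Oa* -0.59. Apart from the settings themselves, the cause was not tested. Genes with few reads, such as *H2-Oa*, are limited by depth.

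The genotypes share replicate numbers 1 and 2, but nothing shows that these pair the libraries. Deviations from the group means correlated at -0.05 for number 1 and 0.06 for number 2 over 7319 genes. With the replicate block, which rests on those 4 libraries, 0 of 8 genes passed the threshold, the median log2 fold change was -2.69, and 0 pathway genes passed.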
